A study of Homo sapiens with 23 samples.

Results

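A pair of short hairpin RNAs against the same transcript, shD3 #1 and shD3 #4, were used to deplete THUMPD3 from A549 cells, an established line of human lung adenocarcinoma epithelium, and the response to one hairpin was set against the response to the other. The members were the 12 total RNA libraries of these knockdowns and their controls, out of 23 libraries in the series, with 3 libraries each of sh1Control, shD3 #1, sh4Control and shD3 #4. The comparison asked for which genes the change from sh1Control to shD3 #1 differed from the change from sh4Control to shD3 #4. All 12 libraries came from A549 cells grown in medium with serum. Both control groups carry the genotype label WT and both hairpin groups the label THUMPD3 knockdown. The study's methods describe doxycycline-inducible hairpins delivered by lentivirus and selected with puromycin, without a step that isolates clones, and call the conditions untreated and treated. The labels do not say whether a control carried the uninduced hairpin. The hairpins differ in sequence, but their sequences were not analysed here. A further 5 libraries of an siRNA experiment (3 of siD3 #3 and 2 of siControl) and 6 deeper libraries of shD3 #1 and sh1Control (3 of each) were read only to look up genes found in the 12.

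THUMPD3 is a methyltransferase that, with its partner TRMT112, places N2-methylguanosine on transfer RNAs. A short hairpin RNA is cut by the cell into a guide strand that is loaded into an Argonaute protein and pairs with its target transcript. Guides of different sequence share the intended target but not the other transcripts they can pair with, which is why knockdown studies commonly run more than 1 hairpin. Here an effect is a log2 fold change of a knockdown against its own control, and the difference is the effect of shD3 #1 minus the effect of shD3 #4, so that a gene with a positive difference was relatively higher with shD3 #1. Levels are given as CPM, the counts of a gene after scaling to a common library total, and a gene was called at an adjusted p under 0.05 by edgeR's quasi-likelihood test with a change of at least 1.5-fold in either direction.

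The 12 libraries held between 9854294 and 20682625 counts, with a median of 18602314, and the lowest total belonged to shD3 #1 replicate 3. Mitochondrial transcripts took 31.4% to 33.6% of the counts in sh1Control and 28.98% to 29.6% in shD3 #1, but 27.8% to 30.9% in sh4Control and 31.2% to 37.4% in shD3 #4. This share was thus below the own control with one hairpin and above it with the other, without overlap, and its part in the gene results was not tested except where a fit without mitochondrial genes is given. THUMPD3 (chromosome 3, 9362971 to 9386791, plus strand, GRCh38) was measured at 61.2, 58.9 and 62.01 CPM in sh1Control and 30.6, 30.2 and 32.6 in shD3 #1. THUMPD3 stood at 66.7, 65.6 and 59.1 CPM in sh4Control and 20.4, 20.2 and 19.4 in shD3 #4. Both knockdowns lay below their own controls in every library, and shD3 #4 lay below shD3 #1 in every library. The remaining level was 51.3% of control with shD3 #1 and 31.3% with shD3 #4, and the effects of -0.97 and -1.67 differed by 0.70 ± 0.097 (SE, n = 3 libraries a group, adjusted p = 1.52e-06). Ordered from the lowest effect, THUMPD3 ranked 44 of 17456 genes in shD3 #4 and 1399 in shD3 #1. TRMT112, the partner subunit, was measured at 61.5, 56.2 and 67.5 CPM in sh1Control and 76.2, 74.2 and 92.4 in shD3 #1. TRMT112 stood at 85.4, 72.8 and 65.6 CPM in sh4Control and 53.6, 56.8 and 62.4 in shD3 #4. Its own effects were not called, but they differed by 0.76 ± 0.13 (SE, adjusted p = 3.47e-05), and the libraries of both knockdowns overlapped with the control libraries of the other hairpin. The related methyltransferases THUMPD2 and TRMT11 had differences of 0.12 ± 0.14 and 0.16 ± 0.11 (SE), which did not pass the test. THUMPD3-AS1, the antisense gene that overlaps THUMPD3, had effects of -0.17 and 0.21 and no called difference.

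Over all genes, the difference was called for 5028 of 17456 genes tested (28.8%), with 2339 higher (13.4%) and 2689 lower (15.4%). The effects taken alone were called for 2452 genes up (14%) and 2571 down (14.7%) with shD3 #1, and for 1326 up (7.6%) and 775 down (4.44%) with shD3 #4. The hairpin with the lower remaining THUMPD3 had the smaller number of called genes. Among genes with a called difference, 2731 were called with shD3 #1 alone, 607 with shD3 #4 alone and 1069 with neither hairpin taken alone. A further 146 genes moved in the same direction with unequal size, 23 of them further with shD3 #4 and the rest further with shD3 #1. In 475 genes (2.72% of those tested) both effects were called and pointed in opposite directions. These were 175 genes up with shD3 #1 and down with shD3 #4 (1%), of which 154 were protein coding, and 300 genes down with shD3 #1 and up with shD3 #4 (1.72%), of which 242 were protein coding. Of 1077 genes called with both hairpins, these 475 had opposite signs, and 456 moved in the same direction with no called difference. The controls differed little by the same test: 20 genes (0.115%) were called between sh1Control and sh4Control, 11 higher (0.063%) and 9 lower (0.0516%) in sh1Control, and 5 of them were among the 475. The median effect over all genes was -0.017 with shD3 #1 and 0.0086 with shD3 #4, and the median difference was -0.038.

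**Figure D1:**
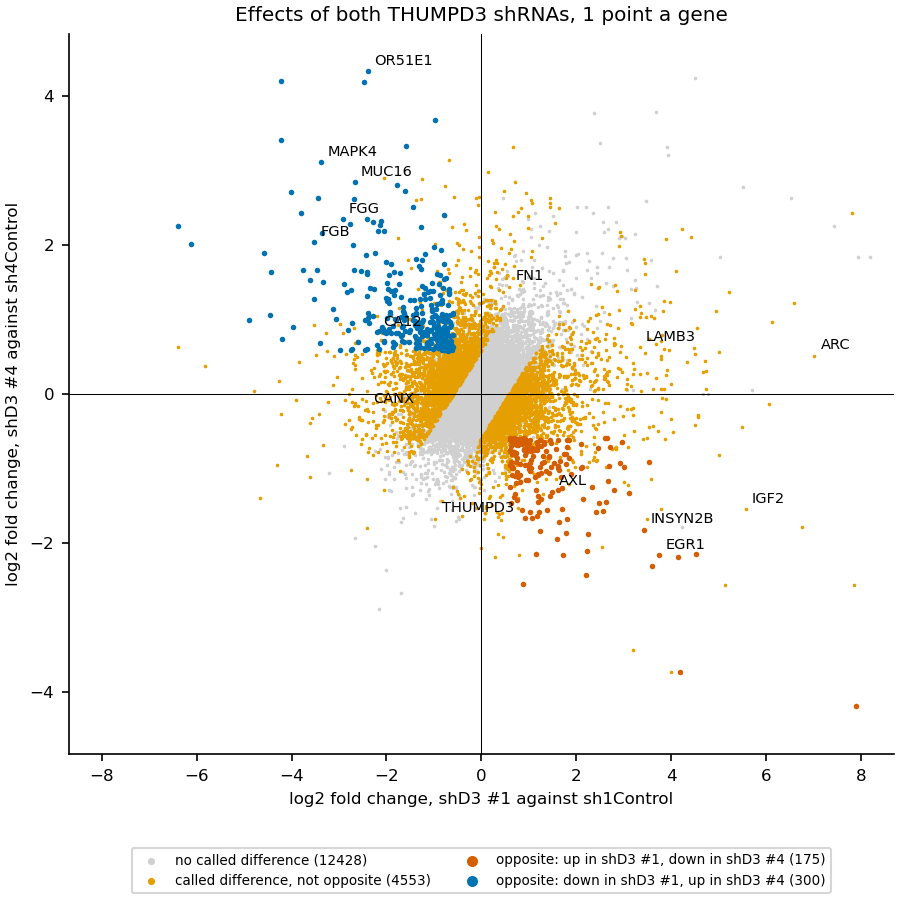
Log2 fold change of each gene with shD3 #1 (horizontal axis) against that with shD3 #4 (vertical axis), 1 point a gene of the 17456 tested. Orange-red points at the lower right are the 175 genes up with shD3 #1 and down with shD3 #4, blue points at the upper left are the 300 genes with the reverse pattern, and THUMPD3 lies at the lower left, at -0.97 and -1.67.

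Fibrinogen and several other liver-type secreted proteins fell with shD3 #1 and rose with shD3 #4. Fibrinogen, the precursor of the fibrin clot, is made of alpha, beta and gamma chains encoded next to each other on chromosome 4 by FGA, FGB and FGG. FGB (154563011 to 154572807) was measured at 142, 129.7 and 139.6 CPM in sh1Control and 12.8, 11.8 and 11.1 in shD3 #1. FGB stood at 107, 128 and 145 CPM in sh4Control and 493, 576 and 496 in shD3 #4. The 4 groups did not overlap except for both controls, and shD3 #1 and shD3 #4 did not overlap with their own controls for 60.1% and 47.9% of all genes. Its difference of -5.56 ± 0.14 (SE, adjusted p = 5.19e-20) was the lowest of its list. FGG (154604134 to 154612967) was measured at 59.6, 51.9 and 58.7 CPM in sh1Control and 8.35, 7.91 and 5.65 in shD3 #1. FGG stood at 42.98, 45.97 and 55.4 CPM in sh4Control and 245, 256 and 238 in shD3 #4, so that it was left at 12.9% of control with shD3 #1 and stood at 512% of control with shD3 #4. FGA (154583126 to 154590742) was measured at 151, 145 and 151 CPM in sh1Control and 28.8, 29.6 and 28.2 in shD3 #1. FGA stood at 127, 130.4 and 159.6 CPM in sh4Control and 259.5, 279.6 and 272 in shD3 #4. Its difference was -3.33 ± 0.11 (SE, adjusted p = 8.08e-18). All 3 chains had the same order of groups, lowest in shD3 #1 and highest in shD3 #4.

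Of 43 endodermal and hepatic-type genes listed, 32 were tested. With shD3 #1, 8 were called up and 13 down, whereas with shD3 #4 14 were called up and 0 down. The difference was called higher for 3 and lower for 17, beside 13.4% and 15.4% of all genes, against which the counts of every list below are also to be read. Its median of -0.83 stood beside a median of -0.038 over all genes. Opposite calls were made for 8: FGA, FGB, FGG, FOXA3, ALB, SERPINA1, TF and VTN. With all 17 libraries of the table in 1 fit, FGA, VTN, ALB, SERPINA1 and TF lost the opposite call, and with DESeq2 TF lost it. VTN, which encodes the adhesive plasma protein vitronectin, was measured at 27, 27.2 and 26.4 CPM in sh1Control and 15.6, 18.2 and 16.2 in shD3 #1. VTN stood at 20.1, 19.3 and 27.8 CPM in sh4Control and 51.7, 56.98 and 62.2 in shD3 #4. It lay below all controls with shD3 #1 and above all controls with shD3 #4. FOXA3, a forkhead transcription factor of liver and gut, was measured at 3.86, 2.18 and 3.35 CPM in sh1Control and 0.729, 0.633 and 1.01 in shD3 #1. FOXA3 stood at 3.44, 3.42 and 3.02 CPM in sh4Control and 6.43, 5.78 and 5.38 in shD3 #4. Its levels were low, and the knockdown libraries of neither hairpin overlapped with their controls. ALB (serum albumin), SERPINA1 (alpha-1 antitrypsin) and TF (transferrin) stayed at or below 4.05 CPM in every library, with differences of -4.59 ± 0.70, -2.96 ± 0.41 and -3.16 ± 0.69. Their opposite calls each rested on single libraries: the call of ALB was lost without sh1Control replicate 1 or shD3 #1 replicate 2, that of SERPINA1 without sh1Control replicate 3 or shD3 #1 replicate 1, and that of TF without sh4Control replicate 1 or 2 or shD3 #4 replicate 3. The list was not uniform, since UGT2B7, a glucuronosyltransferase, was measured at 0.463, 0.516 and 0.651 CPM in sh1Control and 7.29, 6.01 and 5.65 in shD3 #1. UGT2B7 stood at 1.02, 0.385 and 0.796 CPM in sh4Control and 1.05, 1.79 and 0.810 in shD3 #4 and had the highest difference of its members, 2.79 ± 0.47 (SE, adjusted p = 2.14e-05). In the deep libraries of the same hairpin #1, 10 of 28 members of this list were up and 2 down, beside 15% and 14.1% of all genes. The larger number of members down with shD3 #1 was thus not seen there. With siD3 #3, 5 of 31 were up and 1 down.

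The 250 bases before the RefSeq starts of FGB and FGA are shown because they hold motifs of liver factors, while the window of FGG held none of those searched. Capitals mark matches to the C/EBP motif TTNNGCAA and the HNF1 motif TTAATNATT, both of factors that act in liver cells, read on either strand. The build is GRCh38.p14. The FGB window is chr4:154562730-154562979 on the plus strand and the FGA window is chr4:154590743-154590992 on the minus strand.
FGB: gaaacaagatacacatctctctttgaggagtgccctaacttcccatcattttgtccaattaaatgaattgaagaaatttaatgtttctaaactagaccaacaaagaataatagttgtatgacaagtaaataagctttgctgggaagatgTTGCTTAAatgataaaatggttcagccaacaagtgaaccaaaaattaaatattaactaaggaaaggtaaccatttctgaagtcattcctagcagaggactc
FGA: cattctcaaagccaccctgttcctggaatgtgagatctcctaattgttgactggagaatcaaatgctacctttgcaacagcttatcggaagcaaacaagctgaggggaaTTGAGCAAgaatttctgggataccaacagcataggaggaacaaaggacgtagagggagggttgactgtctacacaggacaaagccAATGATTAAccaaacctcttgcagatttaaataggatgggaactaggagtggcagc

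The C/EBP motif was found in a window of 22.7% of the genes down with shD3 #1 and up with shD3 #4 (46 of 203 with a window), of 12.1% of those with the reverse pattern (14 of 116), and of 10.2% of all tested genes with a window (1199 of 11730). Counted per window, since a gene can have several starts, these shares were 15.9%, 8.93% and 7.72%. The forkhead motif TGTTTAC was found for 7.39%, 3.45% and 3.7% of the same genes, and the HNF1 motif for 2.46%, 0.862% and 1.16%. These shares were not tested, and a match is a run of letters rather than a site of binding.

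Other genes down with shD3 #1 and up with shD3 #4 encoded mucins, lung proteins, enzymes and receptors. MUC16, the cell surface mucin known as CA125, was measured at 2.83, 1.66 and 3.30 CPM in sh1Control and 0.398, 0.474 and 0.303 in shD3 #1. MUC16 stood at 1.77, 1.59 and 1.27 CPM in sh4Control and 11.3, 10.98 and 11.2 in shD3 #4. It had effects of -2.66 and 2.85, of nearly equal size and opposite sign. SFTPD, the surfactant protein D of the alveolar lining, was measured at 0.771, 0.917 and 0.601 CPM in sh1Control and 0.133, 0.105 and 0.202 in shD3 #1. SFTPD stood at 0.322, 0.529 and 0.584 CPM in sh4Control and 2.29, 3.06 and 2.14 in shD3 #4. Its effects of -2.41 and 2.36 were likewise similar in size. MAPK4, an atypical kinase of the MAP kinase family, was measured at 0.720, 0.975 and 0.651 CPM in sh1Control and 0, 0.0527 and 0.202 in shD3 #1. MAPK4 stood at 0.806, 1.11 and 1.43 CPM in sh4Control and 9.67, 10.3 and 9.25 in shD3 #4. Neither knockdown overlapped with any control. ADH6, an alcohol dehydrogenase, was measured at 1.34, 1.32 and 2.30 CPM in sh1Control and 0.0663, 0.105 and 0.202 in shD3 #1. ADH6 stood at 1.72, 1.30 and 1.96 CPM in sh4Control and 8.81, 10.6 and 7.35 in shD3 #4. Both were near the limit of detection with shD3 #1 and several-fold above control in each library of shD3 #4.

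The related olfactory receptor genes OR51E1 and OR51E2 both appeared in this class. OR51E1 was measured at 0.360, 0.344 and 0.450 CPM in sh1Control and 0.0663, 0.0527 and 0.101 in shD3 #1. OR51E1 stood at 0.161, 0.385 and 0.424 CPM in sh4Control and 7.20, 6.70 and 6.30 in shD3 #4. OR51E2 and KNG1, which encodes kininogen, had 0 counts in each library of shD3 #1 against 7 counts in all of sh1Control for either gene. Against a limit of 3 counts over the group (0.0682 CPM), the mean of sh1Control was 1.76-fold higher for OR51E2 and 1.87-fold higher for KNG1. A mean from 7 counts is itself uncertain, so these folds are no firm bounds on the fall. With shD3 #4, OR51E2 stood at 2.10, 2.02 and 1.56 CPM and KNG1 at 1.81, 2.08 and 1.22 CPM, against at most 0.229 CPM in any control library. The opposite call was lost for OR51E2 without sh1Control replicate 3 or shD3 #1 replicate 2, and for KNG1 without sh1Control replicate 2 or shD3 #1 replicate 1 or 2. With all 17 libraries in 1 fit, OR51E1 and KNG1 lost it. GPR141, an orphan receptor, had effects of -2.69 and 2.63. GSTA1, a glutathione transferase with close paralogues, had 1 library of shD3 #1 with any count and kept its opposite call in 5 of 18 other settings, whereas MAPK4, ADH6 and MUC16 kept theirs in all 18.

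CA12, a carbonic anhydrase of the cell surface, was measured at 1013, 1026 and 1010 CPM in sh1Control and 224, 218 and 219.9 in shD3 #1. CA12 stood at 767, 825 and 942 CPM in sh4Control and 1495, 1530 and 1486 in shD3 #4. Each knockdown library lay outside the range of its controls, and the difference was -3.03 ± 0.09 (SE, adjusted p = 3.51e-18). ERBB3, the kinase-impaired receptor of the ERBB family that binds neuregulins, was measured at 18.3, 18.7 and 17.4 CPM in sh1Control and 5.50, 5.69 and 4.14 in shD3 #1. ERBB3 stood at 16.2, 15.4 and 18.2 CPM in sh4Control and 30.4, 27.6 and 30.02 in shD3 #4. MMP28, a matrix metalloproteinase of epithelia, had effects of -1.90 and 1.75, CYP4F11, a cytochrome P450 of the NRF2 list, a difference of -1.91 ± 0.15, and WNT4, a WNT ligand, effects of -1.02 and 1.39.

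The reverse pattern, up with shD3 #1 and down with shD3 #4, included genes of AP-1 and the immediate early response. AP-1 is a dimer of JUN and FOS family proteins, and immediate early genes are transcribed within minutes of growth factor or stress signalling. JUN (chromosome 1, 58776845 to 58784048) was measured at 22.2, 21.96 and 22.4 CPM in sh1Control and 84.6, 82.9 and 79.5 in shD3 #1. JUN stood at 27.9, 25.5 and 24.5 CPM in sh4Control and 11.6, 12.2 and 13.1 in shD3 #4. It was highest in every library of shD3 #1 and lowest in every library of shD3 #4. FOSL1, which encodes the FOS family protein FRA1, was measured at 9.21, 7.22 and 8.36 CPM in sh1Control and 27.5, 28.1 and 31.5 in shD3 #1. FOSL1 stood at 8.49, 9.19 and 8.28 CPM in sh4Control and 2.43, 2.60 and 3.12 in shD3 #4. Both genes rose above all controls with shD3 #1 and fell below all controls with shD3 #4, with differences of 2.97 ± 0.10 and 3.48 ± 0.17. EGR1, a zinc finger factor of the immediate early class, was measured at 1.03, 1.20 and 1.30 CPM in sh1Control and 15.97, 17.3 and 13.9 in shD3 #1. EGR1 stood at 0.645, 1.35 and 0.690 CPM in sh4Control and 0.191, 0.173 and 0.231 in shD3 #4, a difference of 5.91 ± 0.44 (SE, adjusted p = 5.87e-11).

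Of 33 AP-1 and immediate early genes tested, 17 were up and 2 down with shD3 #1, and 2 were up and 7 down with shD3 #4. The difference was called higher for 19 and lower for 2, and its median was 1.17. The small counts moved with single libraries: 1 was lower without sh1Control replicate 3 or shD3 #1 replicate 3, and the members up with shD3 #4 were 1 without sh4Control replicate 2 and 0 without shD3 #4 replicate 1. Opposite calls were made for JUN, FOSL1, EGR1 and EREG. NR4A2, a nuclear receptor of the same response, went the other way, with effects of -0.47 and 0.67 and a difference of -1.13 ± 0.24 (SE, adjusted p = 4.06e-04).

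**Figure D2:**
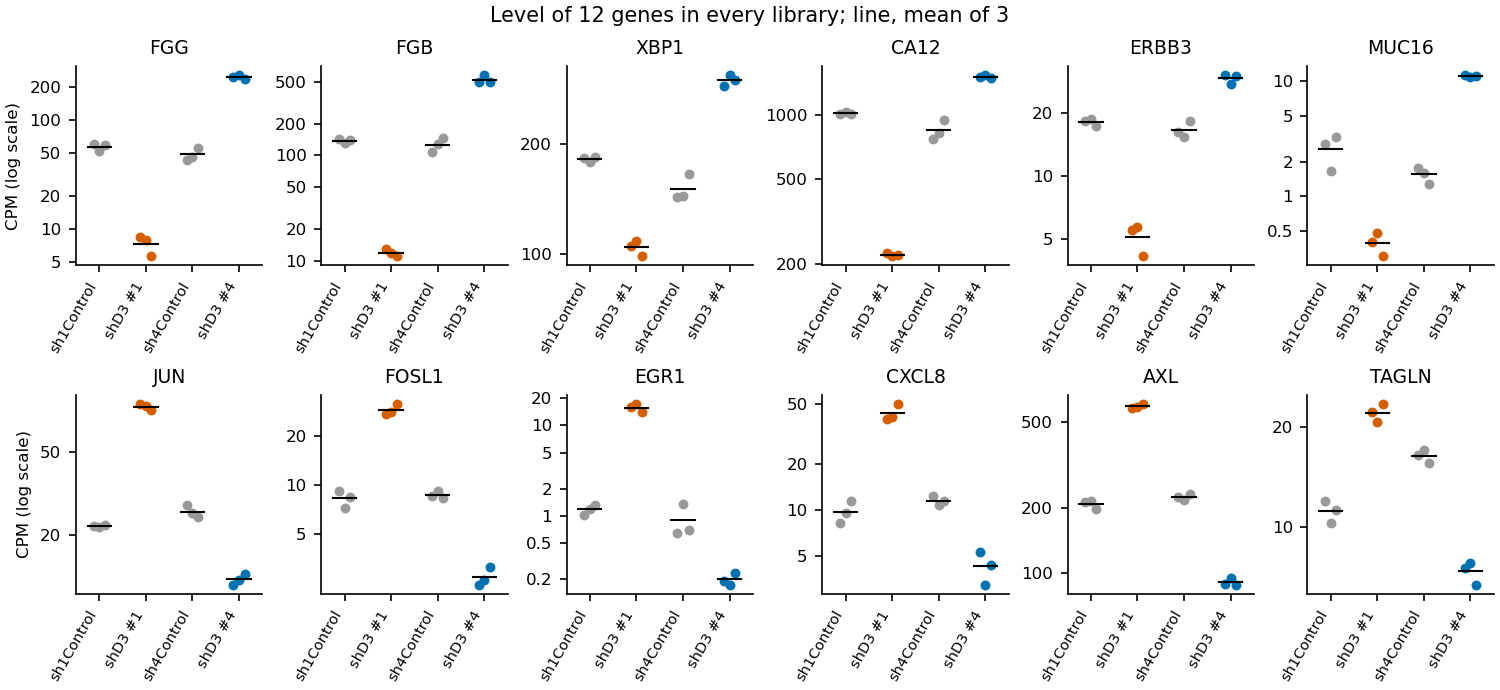
Level in CPM (log scale) of 12 genes with opposite responses in each of the 12 libraries, with a line at the mean of 3. The upper row shows genes that fell with shD3 #1 (orange-red) and rose with shD3 #4 (blue), the lower row the reverse, and both controls (grey) lie between the knockdowns in every panel.

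Ligands and receptors of growth factor signalling were split between the hairpins. Of 24 growth factor ligands tested, 14 were up and 3 down with shD3 #1, 3 were up and 4 down with shD3 #4, and the difference was called higher for 14 and lower for 4. EREG (epiregulin, a ligand of the EGF receptor) was measured at 79.3, 84.2 and 79.3 CPM in sh1Control and 184, 191 and 208 in shD3 #1. EREG stood at 74.03, 65.8 and 67.5 CPM in sh4Control and 35.2, 33.05 and 31 in shD3 #4. NRG1 (neuregulin, a ligand of ERBB3) had effects of 0.72 and -0.67 and FGF2 0.86 and -0.61, while GAS6, the ligand of AXL, had the reverse signs at -0.91 and 0.69. Among 29 receptors tested, the difference was called higher for 6 and lower for 10.

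AXL, the receptor of GAS6 and a marker of mesenchymal-type carcinoma cells, was measured at 213, 217 and 199 CPM in sh1Control and 577, 588 and 605 in shD3 #1. AXL stood at 226, 218 and 233 CPM in sh4Control and 89.5, 94.9 and 88.6 in shD3 #4. None of the groups overlapped, the controls included, and the difference of 2.81 ± 0.08 (SE, adjusted p = 2.39e-18) was the highest of the receptors. EPHA2 and EPHB2, receptors of ephrins, were up with shD3 #1 and down with shD3 #4 as AXL was. ERBB3, FGFR2, FGFR4 and KIT had the reverse pattern, and FGFR4 was measured at 83.9, 81 and 84.4 CPM in sh1Control and 38.7, 34.95 and 30.2 in shD3 #1. FGFR4 stood at 63.9, 67.2 and 82.1 CPM in sh4Control and 122, 121 and 123 in shD3 #4. Some ligand and receptor pairs, picked after their values were seen, had opposite signs of the difference. These were NRG1 and ERBB3, GAS6 and AXL, and FGF2 with both FGFR2 and FGFR4. Other pairs from these lists are not given, so how common this was is not known. The opposite calls of FGF2 and GAS6 were lost without sh4Control replicate 1 and that of EPHB2 without sh4Control replicate 3, where the call with 1 hairpin no longer passed.

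Of 34 epithelial and mesenchymal markers tested, 17 were up and 5 down with shD3 #1, 3 were up and 6 down with shD3 #4, and the difference was called higher for 16 and lower for 4. Without sh4Control replicate 2, 1 was up with shD3 #4. SNAI2, a repressor of epithelial genes, had levels of 0.720, 0.802 and 0.651 CPM in sh1Control and 4.17, 4.59 and 3.13 in shD3 #1. SNAI2 stood at 0.913, 0.770 and 0.902 CPM in sh4Control and 0.238, 0.520 and 0.173 in shD3 #4. It was above all controls with shD3 #1 and below all controls with shD3 #4. TAGLN, an actin-binding protein of contractile cells, was measured at 11.98, 10.3 and 11.3 CPM in sh1Control and 22.2, 20.8 and 23.5 in shD3 #1. TAGLN stood at 16.6, 17.1 and 15.6 CPM in sh4Control and 7.53, 7.80 and 6.71 in shD3 #4. KRT80, a keratin, had effects of 1.29 and -0.93 in the same directions. CDH1 (E-cadherin), which holds epithelial cells together, had the lowest difference of the list at -1.68 ± 0.11 (SE, adjusted p = 2.96e-12), with an effect of -1.39 with shD3 #1 and of 0.30, not called, with shD3 #4. KRT19, another epithelial keratin, was higher with shD3 #1 by 1.68 ± 0.10 (SE, adjusted p = 7.69e-13), so that epithelial members did not share 1 direction.

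Among secreted signals of inflammation, CXCL8, CCL2 and IL32 were up with shD3 #1 and down with shD3 #4. CXCL8 (interleukin 8, which attracts neutrophils) was measured at 8.18, 9.63 and 11.5 CPM in sh1Control and 39.9, 41.01 and 49.9 in shD3 #1. CXCL8 stood at 12.3, 10.7 and 11.5 CPM in sh4Control and 5.29, 3.24 and 4.34 in shD3 #4. CCL2 had effects of 1.00 and -0.66, and IL32 1.23 and -1.84. Of 21 cytokines and chemokines tested, 8 were higher in the difference and 4 lower, and IL33, at or below 1.21 CPM, was lowest at -2.25 ± 0.84 (SE, adjusted p = 0.0306), a call that was lost without any 1 of 6 libraries: sh1Control replicate 1 or 2, shD3 #1 replicate 3, sh4Control replicate 1 or 3, and shD3 #4 replicate 2. The window of EGR1, also searched as a gene of this class, held no match and is not shown. The 250 bases before the CXCL8 start (chr4:73740319-73740568, plus strand) are shown because they hold the AP-1 motif TGANTCA, marked in capitals.
CXCL8: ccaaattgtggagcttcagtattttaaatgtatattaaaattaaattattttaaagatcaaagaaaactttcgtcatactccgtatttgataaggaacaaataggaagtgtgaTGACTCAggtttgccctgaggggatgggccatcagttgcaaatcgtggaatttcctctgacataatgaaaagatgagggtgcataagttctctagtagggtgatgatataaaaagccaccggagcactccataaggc

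This AP-1 motif was found in a window of 19.0% of the genes up with shD3 #1 and down with shD3 #4 (22 of 116), of 8.87% of those with the reverse pattern (18 of 203) and of 7.31% of all tested genes with a window (858 of 11730). Per window the shares were 17.3%, 6.23% and 5.51%. No test was made of these shares.

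In the extracellular matrix the hairpins gave both shared and opposite responses. FN1 (fibronectin) rose with both, at effects of 0.59 and 1.45, and more with shD3 #4, with a difference of -0.85 ± 0.12 (SE, adjusted p = 2.45e-06). FBN1 (fibrillin) was called with shD3 #1 only and LAMB3, a chain of laminin 332, with both, and both genes were relatively higher with shD3 #1, by 1.21 ± 0.12 and 2.71 ± 0.10. LAMB3 was measured at 19.7, 21.2 and 19.9 CPM in sh1Control and 203, 213 and 199 in shD3 #1. LAMB3 stood at 22.7, 21.1 and 25.6 CPM in sh4Control and 33.8, 36.9 and 36.96 in shD3 #4. TNC (tenascin C) had a difference of 3.36 ± 0.18 (SE, adjusted p = 1.15e-13).

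COL13A1, a transmembrane collagen, was measured at 0.874, 0.631 and 1.00 CPM in sh1Control and 3.38, 4.64 and 3.73 in shD3 #1. COL13A1 stood at 0.752, 0.866 and 1.01 CPM in sh4Control and 0.143, 0.116 and 0.347 in shD3 #4. Neither hairpin's knockdown libraries overlapped with the controls. COL5A1, a chain of fibrillar collagen V, was measured at 101, 101 and 102 CPM in sh1Control and 171, 188 and 139.5 in shD3 #1. COL5A1 stood at 92.6, 96.95 and 128 CPM in sh4Control and 43.5, 40.2 and 41.5 in shD3 #4. Both rose with shD3 #1 and fell with shD3 #4. Of 26 collagens tested, 11 were higher in the difference and 6 lower, and of 42 matrix glycoproteins, laminins and proteoglycans 15 were higher and 10 lower. SPOCK1, a testican, followed COL5A1, with effects of 1.37 and -1.04, while FBLN5, an elastic fibre protein, had effects of -2.60 and 0.70. Among 19 integrins tested, 9 were higher and 4 lower, with opposite calls in both directions for ITGA4 (1.80 and -0.71) and ITGA7 (-0.75 and 1.06). The call of ITGA4 was lost without sh4Control replicate 1 and with all 17 libraries in 1 fit. Fibroblast markers moved beside these groups: 5 of 8 were tested, and their summed level was 8.26 to 10.3 CPM in sh1Control, 17.97 to 19.7 in shD3 #1, 6.72 to 9.98 in sh4Control and 12.6 to 15.4 in shD3 #4. Their part in the matrix results was not tested.

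Cytosolic ribosomal proteins, the protein subunits of the translating ribosome, formed the list with the highest share of called differences among those shown in the plot of gene lists. Of 78 tested, 60 were higher in the difference and 0 lower, with a median difference of 0.86. With shD3 #1, 24 were up and 1 down, and with shD3 #4 0 were up and 24 down. Opposite calls were made for RPL11, RPL23, RPL27, RPL31, RPL36, RPL37 and RPS18, and RPS18 was measured at 145, 122 and 145 CPM in sh1Control and 251, 222 and 320.3 in shD3 #1. RPS18 stood at 192, 180.1 and 155 CPM in sh4Control and 104, 119.9 and 119.6 in shD3 #4. The effects of single genes were small, between 0.60 and 0.94 for these 7 with shD3 #1 and between -0.59 and -0.76 with shD3 #4. The opposite call of each of these 7 was lost when at least 2 of the 12 libraries were left out in turn, and that of RPL23 when 5 were.

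The summed level of the 78 genes was 15390, 13740 and 15620 CPM in sh1Control, 19410, 18200 and 22930 in shD3 #1, 19290, 18460 and 16290 in sh4Control, and 12540, 14290 and 13950 in shD3 #4. The libraries of shD3 #1 thus overlapped with those of sh4Control and the libraries of shD3 #4 with those of sh1Control. Every library of sh1Control lay below every library of sh4Control, although 0 members were called between the controls. Both controls enter the difference, and the part of this gap in it was not tested. Single libraries moved the counts of called members. Without shD3 #1 replicate 3 the members up with shD3 #1 went from 24 to 9, and without sh1Control replicate 2 to 13. The members down with shD3 #4 went from 24 to 11 without sh4Control replicate 1 and to 10 without shD3 #4 replicate 1. The difference was called higher for between 54 and 65 members over all libraries left out. In the deep libraries of the same hairpin #1, 0 of 76 members were up and 21 were down, which is the opposite of the 12 libraries, and with siD3 #3 0 were up and 1 down. With mitochondrial genes left out of the fit the counts of called members were the same, 24 up with shD3 #1, 24 down with shD3 #4 and 60 higher in the difference. Ribosomal protein genes are short and have many processed pseudogenes, so their counts are uncertain where reads match several copies.

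The first 20 bases of the transcript at RefSeq starts are shown for the opposite ribosomal protein genes with an entry, since the pyrimidine tract at this end is the feature by which translation of these mRNAs is controlled. Capitals mark an unbroken run of C and T from the first base. Where a gene had several listed starts, the one with the longest run was taken, so the runs shown were selected for. The windows are chr1:23691806-23691825, chr2:101002289-101002308, chr19:5690295-5690314 and chr6:33272075-33272094, all on the plus strand of GRCh38.p14.
RPL11: CTCTTCCTgctctccatcat
RPL31: CTTCCTTTCCaacttggacg
RPL36: CCTTCCgccacggccgtctc
RPS18: CTCTCTTCCacaggaggcct

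A C followed by 4 or more pyrimidines stood at a listed start of 74.2% of ribosomal protein genes (46 of 62 with a window) and of 7.08% of all tested genes. Counted per window, these shares were 59.7% and 5.0%. The entry for RPL27 has no such run at its first base and is not shown. Across 13252 protein-coding genes the Spearman correlation of the difference with transcript length was -0.09, against -0.016 for shD3 #1 and 0.14 for shD3 #4, given as a description of genes that share libraries. Among 715 genes with transcripts of up to 1000 bases the median difference was 0.15 and 19.3% were called higher, against -0.052 and 13.7% of 5420 genes over 4000 bases. Ribosomal protein genes had a median length of 827 bases, and the part of length in their pattern was not tested. Nuclear respiratory chain genes, with a median of 1058 bases, had 0 of 48 higher in the difference and 3 lower, or 1 lower without shD3 #1 replicate 2 or shD3 #4 replicate 2.

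**Figure D3:**
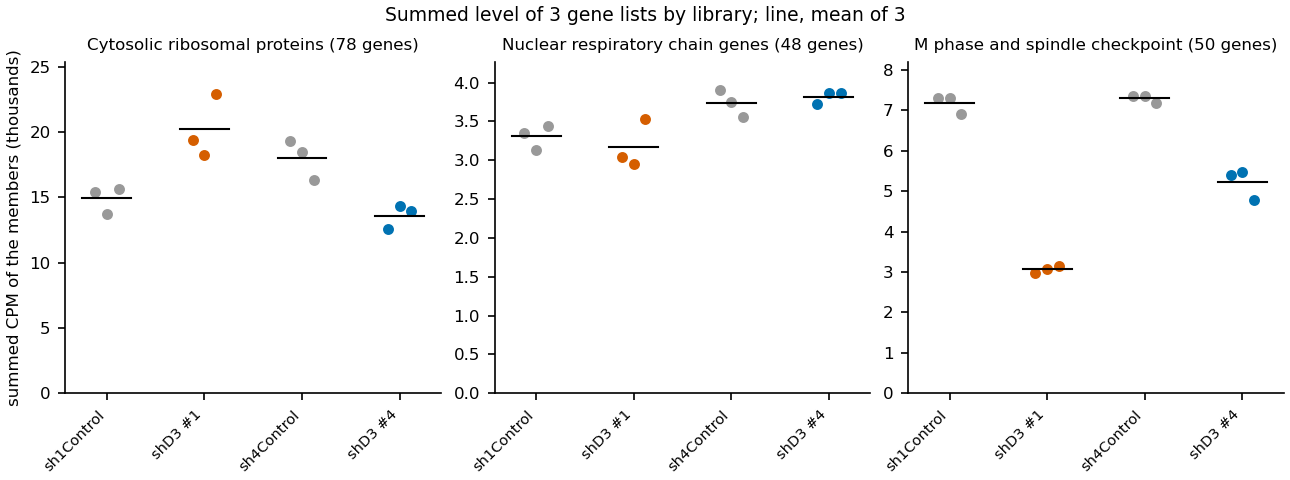
Summed CPM of all tested members of 3 gene lists in each of the 12 libraries, with a line at the mean of 3. Ribosomal protein genes are higher in shD3 #1 and lower in shD3 #4 than in their own controls but overlap with the other hairpin's controls, respiratory chain genes overlap within each hairpin, and M phase genes are lowest in shD3 #1.

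M phase and histone genes were called down with both hairpins, in larger numbers with shD3 #1. Of 50 M phase and spindle checkpoint genes, 48 were down with shD3 #1 and 18 with shD3 #4, none was up with either, and 27 were lower in the difference. Their summed level was 6902 to 7312 CPM in sh1Control and 2972 to 3154 in shD3 #1, against 7176 to 7363 in sh4Control and 4777 to 5485 in shD3 #4. Of 46 replication-dependent histone genes, which are expressed in S phase and whose mRNAs end in a stem loop, 44 were down with shD3 #1 and 15 with shD3 #4, and 32 were lower in the difference. The count of 15 was 6 without sh4Control replicate 1, 8 without shD3 #4 replicate 1, 25 without shD3 #4 replicate 2 and 27 without sh4Control replicate 3. The summed level of the histone genes was 3282 to 3855 CPM in sh1Control and 1402 to 1888 in shD3 #1. In sh4Control it was 3953 to 5087 CPM, above sh1Control without overlap, and in shD3 #4 2942 to 3480. DNA replication genes had 30 of 47 members down with shD3 #1, 12 with shD3 #4 and 5 lower in the difference (9 without sh4Control replicate 1), beside 15.4% lower of all genes.

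Targets of p53, the factor that responds to DNA damage and other stress, were called mainly with shD3 #1. Of 38 tested, 32 were up and 1 down with shD3 #1, 4 were up and 0 down with shD3 #4, and the difference was called higher for 28 and lower for 1. Their summed level was 1567 to 1573 CPM in sh1Control and 2713 to 2892 in shD3 #1, while sh4Control, at 1558 to 1636, overlapped with shD3 #4, at 1601 to 1633. The exception was CCNG1 (cyclin G1), measured at 64.6, 65.98 and 67.2 CPM in sh1Control and 34.1, 35.7 and 39.3 in shD3 #1. CCNG1 stood at 81.7, 81.7 and 70.2 CPM in sh4Control and 93.5, 86.97 and 83.1 in shD3 #4, a difference of -1.04 ± 0.10 (SE, adjusted p = 7.49e-09).

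Genes of lipid synthesis were called down with shD3 #1 and not with shD3 #4. Of 25 cholesterol synthesis and uptake genes, 12 were down with shD3 #1, 0 were called in either direction with shD3 #4, and 12 were lower in the difference. Of 14 fatty acid synthesis genes, 7 were down with shD3 #1 and 0 with shD3 #4. SCD, the stearoyl-CoA desaturase, was measured at 1919, 1989 and 1835 CPM in sh1Control and 713, 711 and 651 in shD3 #1. SCD stood at 1427, 1521 and 1769 CPM in sh4Control and 1753, 1760 and 1596 in shD3 #4. Its difference of -1.58 ± 0.10 (SE, adjusted p = 3.71e-12) exceeded the spread between libraries.

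In the endoplasmic reticulum, CANX, the lectin chaperone calnexin, was measured at 2376, 2341 and 2187 CPM in sh1Control and 442, 434 and 428 in shD3 #1. CANX stood at 2101, 2054 and 2226 CPM in sh4Control and 1849, 1912 and 1785 in shD3 #4. It was left at 18.9% of control with shD3 #1 and at 86.9% with shD3 #4, where it did not reach the size threshold, and its difference was -2.20 ± 0.09 (SE, adjusted p = 2.91e-16). XBP1, a transcription factor of the unfolded protein response, was measured at 183, 179 and 184 CPM in sh1Control and 106, 109 and 99.1 in shD3 #1. XBP1 stood at 143, 145 and 166 CPM in sh4Control and 289, 309 and 301 in shD3 #4 and had opposite effects of -0.80 and 0.98. Of 29 chaperones and unfolded protein response genes tested, 8 were lower in the difference and 0 higher, beside 15.4% and 13.4% of all genes. Antigen presentation by MHC class I, whose list also holds CANX, had 7 of 18 lower and 0 higher, with HLA-F called in opposite directions at -1.30 and 0.83.

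Amino acid stress genes of the ATF4 list were mixed. Of 33 tested, 10 were higher in the difference and 5 lower (3 without shD3 #1 replicate 3), with opposite calls for STC2 (0.85 and -1.55), CHAC1 (1.20 and -1.09) and CTH (-0.73 and 0.87). STC2, a secreted glycoprotein, was measured at 31.8, 31.1 and 27.9 CPM in sh1Control and 52.8, 54.1 and 57.3 in shD3 #1. STC2 stood at 29.7, 27.7 and 28.4 CPM in sh4Control and 9.29, 8.21 and 11.8 in shD3 #4. Its knockdown libraries lay on opposite sides of all controls. Of 29 targets of YAP and TEAD, the effectors of the Hippo pathway, 11 were higher and 2 lower, and ANKRD1, a repeat protein induced by this pathway, was called in opposite directions. ANKRD1 was measured at 9.41, 9.17 and 8.41 CPM in sh1Control and 27.5, 30.3 and 35.7 in shD3 #1. ANKRD1 stood at 13.9, 12.4 and 8.76 CPM in sh4Control and 5.72, 5.78 and 6.88 in shD3 #4. It too was above all controls with shD3 #1 and below them with shD3 #4. SFRP1, a secreted WNT inhibitor, was measured at 75.4, 73.7 and 74.3 CPM in sh1Control and 402, 404 and 424 in shD3 #1. SFRP1 stood at 66.1, 62.3 and 68.5 CPM in sh4Control and 40.8, 41.2 and 37.1 in shD3 #4. Its difference of 3.18 ± 0.09 (SE, adjusted p = 4.77e-19) had the reverse sign of that of WNT4.

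The remaining lists had smaller or mixed counts, to be read against 13.4% higher and 15.4% lower of all genes. None of 13 genes of the RNA interference machinery was called with either hairpin or in the difference. Interferon-stimulated genes had 6 of 41 higher and 7 lower, and MX1, with the highest difference, stood at 4.17, 4.59 and 12.6 CPM in shD3 #1. Aminoacyl-tRNA synthetases, which charge tRNAs, had 2 of 23 higher, and ribosome biogenesis genes 7 of 35 higher, with none lower in either list. Glycolysis and hypoxia genes had 3 of 35 higher and 3 lower, splicing regulators 3 of 36 higher and 1 lower, and TGF-beta genes 6 of 32 higher and 2 lower. Matrix proteases had 12 of 32 higher and 2 lower, lysosomal genes 6 of 30 higher and 3 lower, NRF2 targets 3 of 33 higher and 8 lower, WNT genes 7 of 30 higher and 6 lower, and protocadherins 1 of 16 higher and 5 lower. Of 13 mitochondrially encoded mRNAs, 2 were lower in the difference, and of 7 IGF-binding proteins 2 were higher and 3 lower. Leaving out 1 library moved several of these small counts by over 1.5 times: synthetases higher to 0 (without shD3 #1 replicate 3) or 1 (without sh4Control replicate 1), NRF2 targets higher to 1 (without either of the same libraries), TGF-beta genes lower to 4 (without shD3 #1 replicate 2 or sh4Control replicate 3), lysosomal genes lower to 1 (without shD3 #4 replicate 1), and protocadherins lower to 3 (without shD3 #1 replicate 3 or shD3 #4 replicate 1) and higher to 2 (without shD3 #1 replicate 1 or sh4Control replicate 2). Mitochondrial mRNAs lower in the difference went to 1 without sh1Control replicate 1, sh4Control replicate 1 or shD3 #4 replicate 2, and to 4 without sh4Control replicate 3 or shD3 #4 replicate 1.

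**Figure D4:**
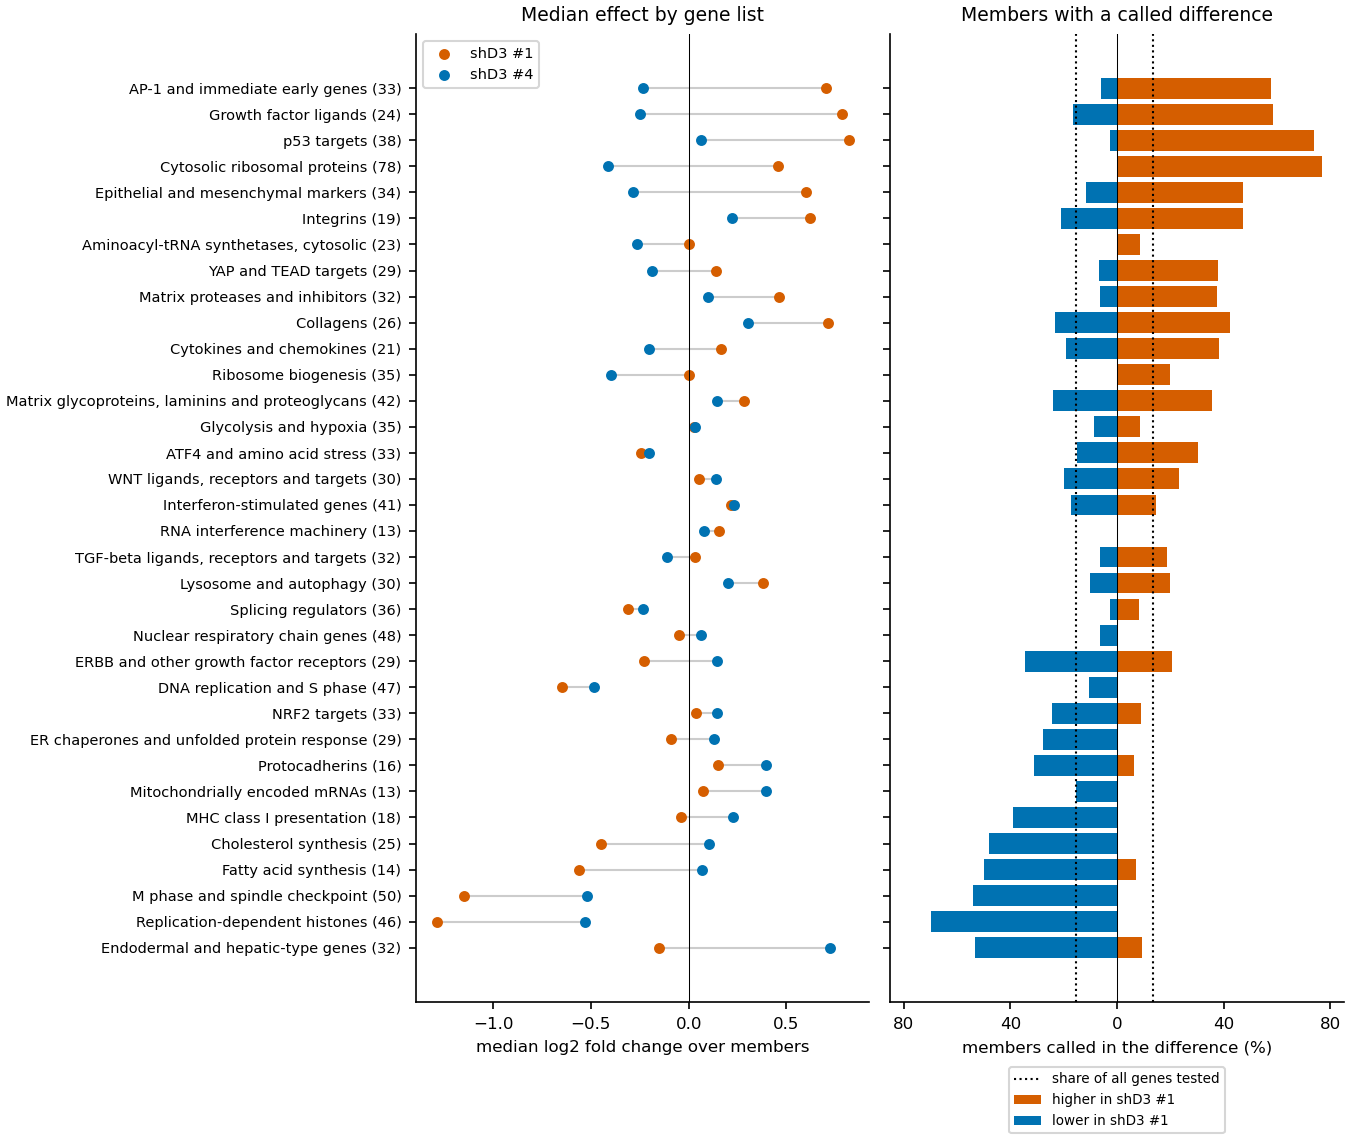
Left, median log2 fold change over the tested members of each gene list (number in brackets) with shD3 #1 (orange-red) and shD3 #4 (blue). Right, the percentage of members called higher (orange-red) or lower (blue) in the difference, with dotted lines at the shares of all genes tested, 13.4% and 15.4%; ribosomal proteins and p53 targets extend furthest to the right and histones furthest to the left.

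Among genes not called in opposite directions, 10 were taken for the largest differences with at least 20 counts in every library of the highest group and no overlap with controls, and most of them were nearly silent in 3 of the 4 groups. WNT7A, a WNT ligand below that count limit, reached at most 1.82 CPM in shD3 #1 and had 0 counts in shD3 #4, so that its fitted difference of 7.73 is no bound. IGF2, an insulin-like growth factor, was measured at 0.257, 0.229 and 0.300 CPM in sh1Control and 12.99, 13.4 and 12.01 in shD3 #1. IGF2 stood at 0.269, 0.241 and 0.159 CPM in sh4Control and 0, 0.173 and 0.0578 in shD3 #4. Only shD3 #1 stood apart. ARC, an immediate early gene of neurons, was measured at 0.154, 0.172 and 0.150 CPM in sh1Control and 23.8, 20.8 and 19.6 in shD3 #1. ARC stood at 0.161, 0 and 0.106 CPM in sh4Control and 0.143, 0.0578 and 0.173 in shD3 #4. The same group was high. MAFA, a factor of pancreatic beta cells, was measured at 0.154, 0.229 and 0.350 CPM in sh1Control and 16.9, 16.97 and 16.7 in shD3 #1. MAFA stood at 0.483, 0.289 and 0.424 CPM in sh4Control and 0.286, 0.231 and 0.578 in shD3 #4. All 3 were present at several CPM or more in shD3 #1 only. MMP1 and RASD1 were likewise high in shD3 #1, but MMP1, at or below 3.13 CPM, lost its call without sh1Control replicate 1 or 3 or sh4Control replicate 2 or 3. In the other direction, CRYAB (alpha-B crystallin) and PKHD1 were raised with shD3 #4 only, to 3.76, 4.85 and 4.92 CPM and to 3.48, 3.81 and 3.53 CPM, and HAO1 to at most 1.62 CPM. CLVS1 was instead reduced with shD3 #1, from 1.49, 1.49 and 1.40 CPM to 0, 0 and 0.202 CPM.

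Further genes up with shD3 #1 and down with shD3 #4 were low in level. INSYN2B was measured at 1.59, 1.72 and 1.45 CPM in sh1Control and 15.7, 15.9 and 20.4 in shD3 #1. INSYN2B stood at 2.20, 1.78 and 1.22 CPM in sh4Control and 0.524, 0.405 and 0.521 in shD3 #4. It was above all controls in shD3 #1 and below them in shD3 #4. MARCHF4, a ubiquitin ligase, was measured at 3.75, 3.27 and 2.65 CPM in sh1Control and 9.61, 11.6 and 10.4 in shD3 #1. MARCHF4 stood at 4.57, 4.62 and 4.19 CPM in sh4Control and 1.05, 1.04 and 0.868 in shD3 #4. The long RNA gene ENSG00000285517 had effects of 1.59 and -1.95, the pseudogene PGM5P2, which has near-identical copies, 2.20 and -2.43, and TMEM171 2.24 and -1.89. DPF3 stood at or below 0.0578 CPM in each library of shD3 #4, so that its fall rests on few counts. The opposite call of DPF3 was kept in 5 of 18 other settings, while all 18 kept the call for EGR1, INSYN2B, COL13A1 and PGM5P2. As above, the stricter fold thresholds and the filter of 10 counts in every library are not among the 18.

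The label of an epithelial carcinoma line was checked against cell type markers. All 8 lung carcinoma epithelium markers were tested, and 4 were higher and 2 lower in the difference. Their summed level was 7351 to 7757 CPM in sh1Control and 9082 to 9680 in shD3 #1, against 8360 to 8541 in sh4Control and 7070 to 7558 in shD3 #4. The sum thus moved in opposite directions against the own controls, but shD3 #4 overlapped with sh1Control. No single member was called in opposite directions, and the part of the sum in the other results was not tested. Of 6 endothelial markers only CDH5 was tested, at or below 1.21 CPM, and of 8 leukocyte markers 2 were tested, with a sum at or below 6.51 CPM and CD14 lower in the difference by -1.17 ± 0.29 (SE, adjusted p = 1.77e-03). CDH5 was itself called down with shD3 #1 and up with shD3 #4. This call was lost without sh1Control replicate 2 or shD3 #1 replicate 1, and with all 17 libraries in 1 fit. The other members of these lists did not pass the filter on low counts.

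The genes called in opposite directions were then looked up in libraries that had no part in choosing them. Of the 175 genes up with shD3 #1 and down with shD3 #4, 162 were tested in the deep libraries of shD3 #1, where 112 were up (69.1%) and 3 down, against 15% up and 14.1% down of all 18763 genes. Of the 300 genes with the reverse pattern, 232 were tested, with 108 down (46.6%) and 10 up. Genes with a called difference that were called with shD3 #1 alone had like shares. Of those up with shD3 #1, 66.4% were up in the deep libraries, and of those down, 59.4% were down. The shares are thus not particular to genes with opposite calls. Whether the deep libraries came from the same cultures as the 12 is not stated, so these counts are a description. Levels in the deep controls were not those of sh1Control for some genes, as far as separately scaled tables can be compared: FGB stood at 3.94, 3.27 and 6.08 CPM, FGG at 2.53, 2.02 and 3.09, and EGR1 at 818, 755 and 892 in deep sh1Control. Beside these levels, in the deep libraries FGG, FGB and FGA had effects of 0.50, -0.25 and -0.052, EGR1 0.23, XBP1 0.15 and MUC16 -0.0021, none of them called, whereas JUN (0.93), AXL (0.90), SFRP1 (2.31), CA12 (-1.83) and CANX (-2.00) were called in the direction of the 12 libraries.

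With siD3 #3, in which THUMPD3 was measured at 65.7 and 68.5 CPM in siControl and at 11.6, 12.5 and 10.5 in siD3 #3, the opposite genes followed neither hairpin throughout. The siRNA was delivered by transient transfection, and the study harvested these cells on another day after the start of treatment than the hairpin cells. The part of time and delivery was not tested. Of the 175, 171 were tested, with 52 up (30.4%) and 9 down, against 12.5% up and 9.42% down of all 17032 genes. Of the 300, 272 were tested, with 51 up (18.8%) and 13 down (4.78%). Leaving out single siRNA libraries moved these counts: the first class had 28 up without siControl replicate 1, and the second 26 up without siControl replicate 2 and 91 up without siD3 #3 replicate 3. The first class had more genes called in the direction of shD3 #1 and the second more in the direction of shD3 #4. Among genes with a called difference, 34.2% of those up with shD3 #1 alone and 28.5% of those up with shD3 #4 alone were also up with siD3 #3. Among genes named above, JUN (0.95), CXCL8 (2.02) and IL32 (2.24) were up, as with shD3 #1, and MUC16 (2.23), VTN (1.77), SFTPD (2.48) and MMP28 (1.55) were up, as with shD3 #4. AXL (-0.13), EREG (-0.24) and CA12 (0.23) were not called.

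**Figure D5:**
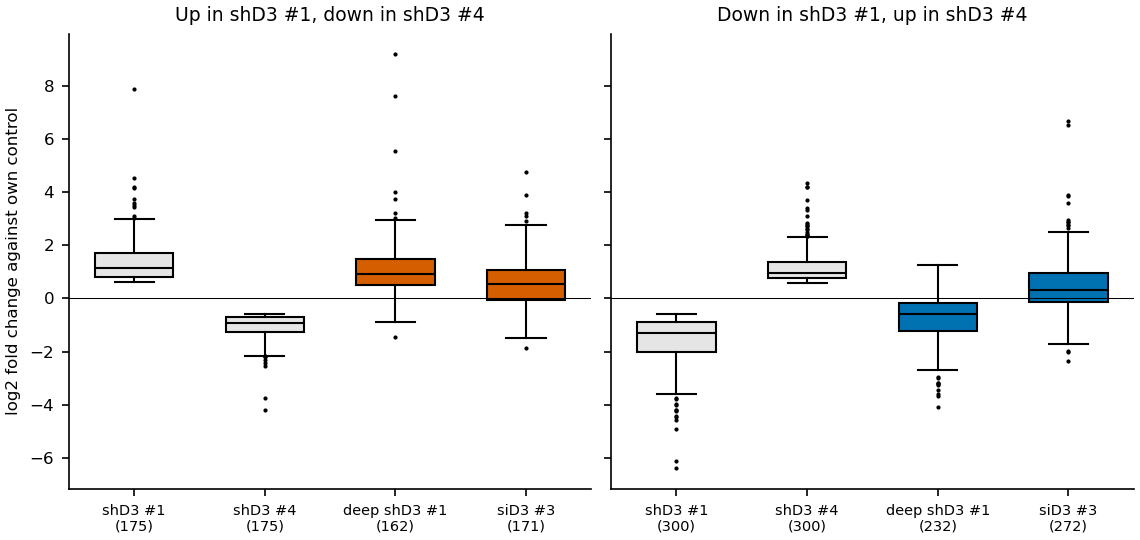
Log2 fold change against the own control of the genes called in opposite directions, in the 12 libraries (grey boxes, the values that chose them), in the deep libraries of shD3 #1 and with siD3 #3 (coloured boxes), with the number of genes in brackets. Boxes span the quartiles with a line at the median and whiskers reach the last point within 1.5 box lengths; the deep medians are 0.93 and -0.58, and the siD3 #3 medians are 0.54 and 0.33, both above 0.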

How the data were processed

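RNA of A549 cells, without its ribosomal RNA, was made into libraries with a directional kit. The authors trimmed reads with Trimmomatic (version 0.40), aligned and counted them per gene with STAR (version 2.7.10a) against GRCh38.p14, and deposited raw counts that were not normalised. The strand setting of the counting is not given in the sources used here, so a gene and its antisense partner may share reads. The deposited table of the 12 libraries listed 61806 genes by Ensembl identifier, and the deep libraries were in a separate table that was fitted alone and joined by symbol.

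From these counts, library sizes were scaled by TMM, low genes were removed with filterByExpr, and 17456 genes were fitted over the 4 groups with the quasi-likelihood test of edgeR (version 4.0.16, in R 4.3.3). The p-values were adjusted over all genes by the Benjamini-Hochberg method, and a gene was called at an adjusted p under 0.05 and a fold change of at least 1.5. All p-values printed come from this test unless another is named. SE values are on the log2 scale, with 3 libraries a group. Each SE is the size of the log2 value divided by the square root of the F statistic of this test, so it is approximate. The labels call the libraries biological replicates and do not say whether they came from separate cultures, so p-values measure the spread between these libraries. No 2 libraries of a group were alike within sampling noise. DESeq2 (version 1.42.0) was an alternative, as were other scalings, filters, thresholds and leaving out each library.

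Genes were named by a rule: THUMPD3 and its relatives, 4 matrix genes, the 10 genes in each opposite class with the largest smaller effect, the 5 in each direction with the largest difference among other called genes, each with at least 20 counts in every library of their highest group and no overlap with controls, and for each of 40 gene lists the called extremes and up to 8 opposite members. The members, lists and rule were chosen with earlier results of these data known. On simulated counts of 17456 genes for the difference, 85% of 2-fold and 99% of 4-fold changes were recovered, with 5 false calls. The changes were placed in 200 genes with a mean of at least 20 counts, so recovery among lower genes is not known. Promoter and start sequences came from RefSeq on GRCh38.p14. Windows were matched by symbol for 116 of 175 and 203 of 300 opposite genes. Some genes that met the rule are not reported here.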

Additional observations from a re-analysis of the deposited data

Results flagged for a closer look

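The results that differed between the hairpins were tested by the difference of their effects in 1 fit of all 12 libraries, with edgeR's quasi-likelihood test. By this test 2339 genes were relatively higher and 2689 relatively lower with shD3 #1. Of these, 175 genes were called up with shD3 #1 and down with shD3 #4, and 300 genes were called down with shD3 #1 and up with shD3 #4. THUMPD3, the shared target, was itself higher with shD3 #1 by 0.70 on the log2 scale (0.7047 before rounding, adjusted p = 1.52e-06), in each of 3 libraries against each of 3.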

How the results depend on the processing

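No called result named here changed direction in the alternatives run. Uncalled values near 0 did: the THUMPD2 difference spanned -0.016 to 0.20 and the median difference of interferon-stimulated genes -0.087 to 0.18 with single libraries left out, and with at least 10 counts in every library the median effect of shD3 #1 on protocadherins went from 0.15 to -0.18 and the median difference of WNT genes from 0.011 to -0.41. A log2 threshold of 1 gave 1151 genes higher and 1462 lower in the difference, 51 and 108 opposite genes (up and down with shD3 #1), 1254 up and 1245 down with shD3 #1 and 572 up and 221 down with shD3 #4, and the THUMPD3 difference of 0.7047 was below it. A test against the threshold itself (glmTreat) gave 1226 and 1416, 41 and 98, 1459 and 1441, and 461 and 170 for the same counts, with THUMPD3 at 0.7047 no longer called. Both settings ask for a larger change by construction. With at least 10 counts in every library, 165 genes were down with shD3 #1 and up with shD3 #4, from fewer genes tested. DESeq2 found 412 opposite genes, 406 of them among the 475, and 277 were opposite in every fit that left out 1 of the 12 libraries. Over those fits the genes up with shD3 #1 and down with shD3 #4 numbered 142 to 177, those with the reverse pattern 258 to 337, the genes higher and lower in the difference 2231 to 2410 and 2549 to 2740, and the THUMPD3 difference was 0.672 to 0.759. Same-numbered libraries of a knockdown and its control had correlations between -0.0794 and 0.228, and those of different numbers between -0.193 and 0.135. These ranges overlap, so whether replicate numbers pair the samples was not settled. A replicate block gave 5025 genes with a called difference and 463 opposite genes, against 5028 and 475 without it. With all 17 libraries in 1 fit, 75 of the 300 genes down with shD3 #1 and up with shD3 #4 were up with siD3 #3 and 24 were down. In the fit of the siRNA libraries alone, 51 of 272 were up and 13 down. The siRNA experiment had 2 controls, and leaving out 1 of its libraries gave 28 to 52 up and 5 to 13 down of the genes up with shD3 #1 and down with shD3 #4, and 26 to 91 up and 4 to 15 down of those with the reverse pattern. The cause of these shifts was not tested. Single libraries decided calls both of genes near 1 CPM and of genes far above it, such as FGF2, EPHB2 and RPS18.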
